A study of Sus scrofa with 48 samples.

Results

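Extracellular matrix and its remodelling were followed through 7 genes, decorin (DCN), SPARC, matrix metallopeptidase 2 (MMP2), its inhibitor TIMP1, osteopontin (SPP1), clusterin (CLU) and transforming growth factor beta 1 (TGFB1), in gluteus medius (GM), liver and kidney of F2 pigs. A probe belonged to the set when the accession annotated to it was a transcript of one of these genes, which gave 13 of the 43603 different probes on the array and 7 of the 1862 genes that a RefSeq accession named. DCN (NM_213920) had 3 probes, SPARC (NM_001031794) had 4, SPP1 (NM_214023) had 2, and MMP2 (NM_214192), TIMP1 (NM_213857), CLU (NM_213971) and TGFB1 (NM_214015) had 1 each. All 13 probes passed the filter on low signals in each tissue. Where each probe lies in its transcript was not analysed here, so the probes of a gene are given by name.

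The pigs were Swiss Large White F2 offspring, and each pig was sampled in all 3 tissues at slaughter. The F0 grandsires of the 8 F2 C offspring had received a standard diet, and those of the 8 F2 E offspring the same diet enriched in methylating micronutrients (methionine, betaine, choline, folate and vitamins of the B group). The F1 boars and all F2 pigs of both lines ate standard diets only, so that the lines differed in the feeding of a grandsire and in descent. Each line had 4 barrows, which are castrated males, and 4 females. The pigs of a line descended from few F0 and F1 boars and the labels used here do not give litters, so the p-values measure the spread between these pigs.

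Fibroblasts and related stromal cells lay down a matrix of collagen fibrils, glycoproteins and proteoglycans around muscle fibres, hepatocytes and nephrons. Metalloproteinases cut that matrix, tissue inhibitors hold them back, and TGFB1, a growth factor stored in the matrix in latent form, drives cells to make more of it. DCN is a proteoglycan that coats collagen fibrils and binds TGFB1, SPARC is a collagen-binding glycoprotein without a structural role of its own, SPP1 is a secreted phosphoprotein that cells hold through integrins and CD44, and CLU is a secreted chaperone that the liver releases into plasma.

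RNA was measured on 48 one-colour arrays, 1 per pig and tissue, with 4 arrays on each slide. The median raw signal, which stands for depth here, was 48 to 88.5 on the GM arrays, 88 to 167 on those of liver and 48 to 240.5 on those of kidney, and the number of arrays limits the precision. Of the marker genes fixed for the tissue, 11 of 11 myofibre genes and 8 of 8 hepatocyte genes separated GM and liver from both other tissues on every array, and 4 of 5 kidney genes did so for kidney, the exception being SLC22A6. In GM and kidney each slide held pigs of a single line, so slide and line cannot be told apart there. In liver, 2 of the 4 slides held both lines. Levels below are log2 units of the normalized signal, and they are compared for the same probe only, since the brightness of different probes does not measure their abundance.

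The 7 genes separated the tissues into groups. DCN, SPARC and MMP2 were highest in GM on every probe, CLU was far highest in liver, SPP1 was highest in kidney, TGFB1 was lowest in GM, and TIMP1 was lowest in liver. At a Benjamini-Hochberg adjusted limma p below 0.05 over all probes, 12 of the 13 probes differed between GM and liver, 13 between GM and kidney and 10 between liver and kidney. The share of all 34501 probes called was 70.7% between GM and liver, 75.2% between GM and kidney and 70.1% between liver and kidney, so that most probes of any kind differed between these tissues. The arrays of the tissues did not overlap for 9 of 13 probes between GM and liver, for 8 between GM and kidney and for 3 between liver and kidney, against 24.7%, 25.1% and 18.9% of all probes. Tissues were hybridised on separate slides, so slide and tissue cannot be told apart, and in bulk tissue fewer cells of a type and less RNA per cell cannot be told apart either.

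**Figure D1:**
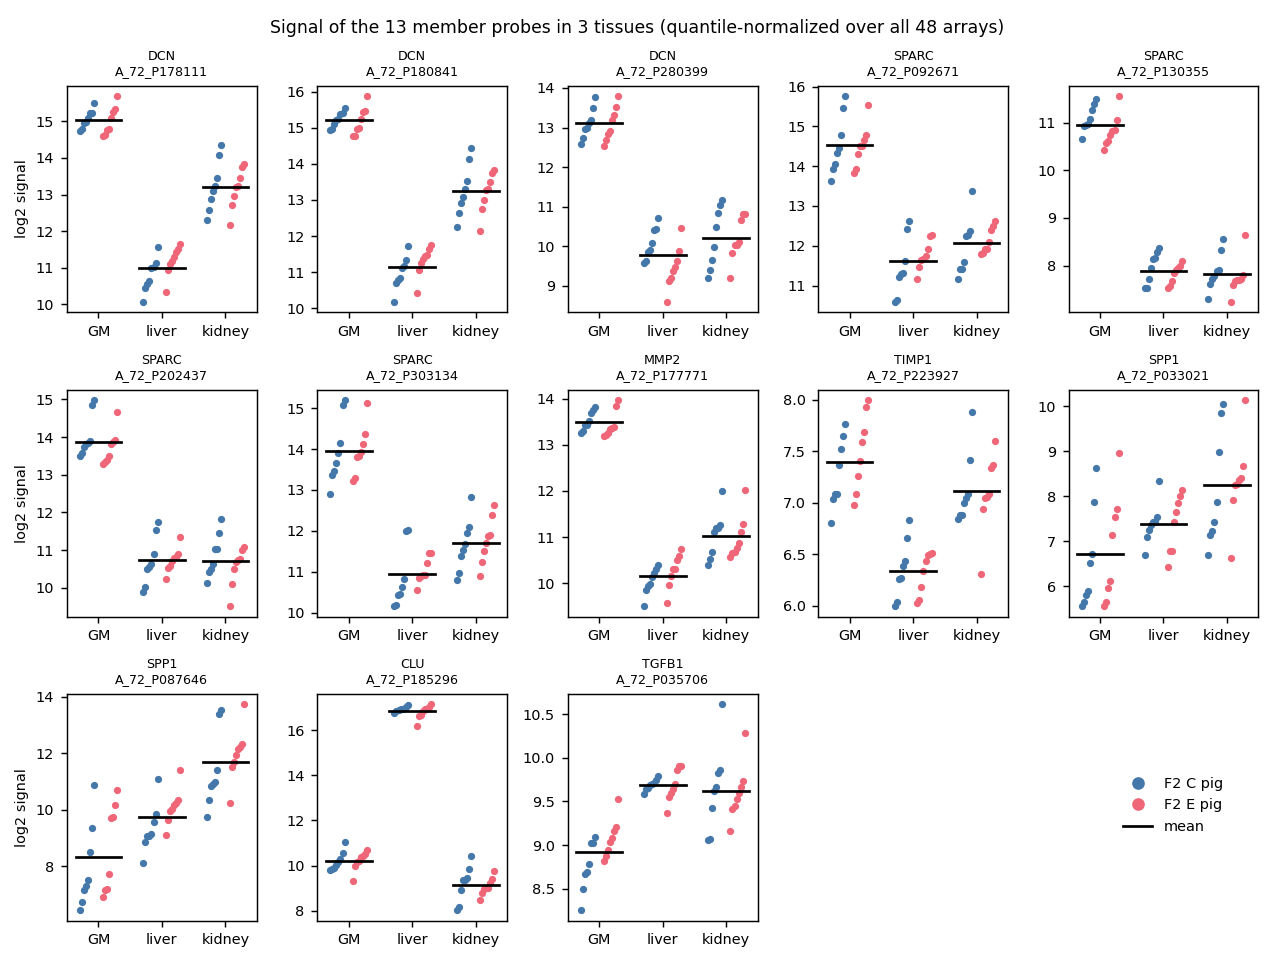
Level of each of the 13 probes in GM, liver and kidney on the log2 scale of the joint normalization of 48 arrays, with 1 point per pig coloured by line and the mean over pigs as a bar. Levels are comparable within a panel only. DCN, SPARC and MMP2 sit highest in GM, CLU in liver and SPP1 in kidney.

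For DCN the probe A_72_P178111 had a level in GM of 14.61 at the lowest, 15.04 at the median and 15.69 at the highest. The same probe ranged from 10.06 through a median of 11.06 to 11.66 in liver, and from 12.17 through 13.22 to 14.36 in kidney. None of the 3 ranges touched another, and the order from GM over kidney to liver held in 16 of 16 pigs. The difference between GM and liver was 4.05 (SE 0.162), which is 16.5-fold, with an adjusted p of 1.18e-27, and that between GM and kidney was 1.83 (3.56-fold, adjusted p 2.06e-14). A_72_P180841 gave nearly the same differences, 4.07 and 1.97. A_72_P280399 was also highest in GM, by 3.33 against liver and by 2.90 against kidney, but put kidney only 1.34-fold above liver (adjusted p 0.0316), in 12 of 16 pigs and with overlapping arrays, where the other probes gave 4.65-fold and 4.29-fold.

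SPARC was 7.56 to 8.84-fold higher in GM than in liver over its 4 probes, and 4.75 to 8.93-fold higher in GM than in kidney. With A_72_P092671 the GM level was 14.53 ± 0.62, the liver level 11.61 ± 0.59 and the kidney level 12.06 ± 0.55 (SD, n = 16). All GM arrays lay above all liver and kidney arrays for each of the 4 probes, and the highest adjusted p of these 8 comparisons was 1.02e-13. Between liver and kidney the probes of SPARC parted. A_72_P303134 was 1.71-fold lower in liver (adjusted p 0.000978) and A_72_P092671 was 1.36-fold lower in liver (adjusted p 0.0400), while A_72_P130355 differed by 0.07 (SE 0.115, adjusted p 0.601) and A_72_P202437 by 0.01 (SE 0.174, adjusted p 0.946).

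MMP2, the gelatinase that cuts denatured collagen and basement membrane collagen, followed the order of DCN. Its level was 13.20 at the lowest, 13.40 at the median and 13.96 at the highest in GM, against 9.51, 10.19 and 10.74 in liver and 10.40, 10.99 and 12.02 in kidney. GM was separate from both, 10.0-fold above liver (log2 3.33, SE 0.128, adjusted p 2.29e-28) and 5.52-fold above kidney (adjusted p 5.78e-23). Kidney lay 1.82-fold above liver in 16 of 16 pigs (adjusted p 6.00e-08), although the ranges overlapped. TIMP1, a secreted inhibitor of MMP2 and its relatives, spanned less. Its level was 7.39 ± 0.36 for GM, 6.34 ± 0.24 for liver and 7.11 ± 0.36 for kidney (SD, n = 16). GM was 1.05 above liver in 16 of 16 pigs (2.08-fold, adjusted p 1.26e-11), and kidney was 1.71-fold above liver in 15 of 16 (adjusted p 5.06e-08). The difference of 0.28 between GM and kidney (12 of 16 pigs, adjusted p 0.0241) was not stable. Its adjusted p was 0.130 with the scanner software's processed signal. With the median signal scaled to the 75th percentile, which moved the median of all probes by 0.60 between these tissues, it was -0.09 relative to that median against 0.33 in the joint normalization.

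SPP1, as measured by A_72_P087646, varied more between the pigs of each tissue than any other of the 7 genes. In GM that probe had 6.43 at the lowest, 7.63 at the median and 10.87 at the highest. Liver had 8.10, 9.75 and 11.39, and kidney had 9.73, 11.61 and 13.73. The ranges of all 3 tissues overlapped, yet kidney was above both GM and liver in each of the 16 pigs. Kidney exceeded GM 10.3-fold (log2 SE 0.395, adjusted p 1.30e-10) and liver 3.89-fold (adjusted p 2.13e-05), and liver exceeded GM 2.64-fold in 13 of 16 pigs (adjusted p 0.00154). The second probe, A_72_P033021, gave smaller differences in the same directions, 2.90-fold, 1.81-fold and 1.60-fold, of which the last missed the threshold (adjusted p 0.0598). That probe was well above background on only 9 of the 16 GM arrays, 4 of F2 C and 5 of F2 E offspring, so its GM values are in part at the limit of detection.

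CLU had a level in liver between 16.18 and 17.15 with a median of 16.94 over 15 pigs, since its spot on the array of F2 C replicate 1 was marked as an outlier by the scanner software and left out. That array had 425 marked spots, and no other liver array had more than 222, and with the spot kept its value normalized within liver was 17.11. GM lay at 9.31 to 11.06 and kidney at 8.00 to 10.42, far below every liver array. Liver was 102-fold above GM (log2 SE 0.160, adjusted p 1.20e-36) and 215-fold above kidney (log2 7.75, adjusted p 4.57e-39). GM was 1.08 above kidney in 16 of 16 pigs (adjusted p 3.67e-08). TGFB1 spanned the least of the 7 genes. Its level was 8.92 ± 0.30 for GM, 9.69 ± 0.14 for liver and 9.62 ± 0.41 for kidney (SD, n = 16), with GM 1.71-fold below liver in 16 of 16 pigs (adjusted p 4.37e-09) and 1.63-fold below kidney in 15 of 16 (adjusted p 3.73e-08). Liver and kidney differed by 0.07 (SE 0.104, adjusted p 0.569).

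Probes of 1 gene thus differed in the size of the tissue difference, and this was tested on the log2 difference between 2 probes of the same accession. Between liver and kidney the log2 difference of A_72_P178111 was that of A_72_P280399 plus -1.79 (SE 0.128, adjusted p 8.55e-17), and A_72_P033021 of SPP1 differed from A_72_P087646 by 1.11 (SE 0.161, adjusted p 5.28e-08). Such differences were common on the array. Of the 3205 probe pairs that shared an accession, 55.2% differed between GM and liver, 76.1% between GM and kidney and 69.2% between liver and kidney at an adjusted p below 0.05. Over the 16 pigs the probes A_72_P178111 and A_72_P180841 of DCN followed each other in each tissue, with r of at least 0.99, as a description. A_72_P280399 followed A_72_P178111 in GM (r 0.88) and kidney (r 0.93) but less in liver (r 0.28). The SPP1 probes had r of 0.95 in GM, 0.96 in kidney and 0.75 in liver, and A_72_P130355 of SPARC followed the other SPARC probes least, with r between 0.04 and 0.80.

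Other genes of the matrix were set beside the 7. A list of 132 genes of collagens, matrix glycoproteins, proteoglycans, proteases, inhibitors, collagen processing, the TGF-beta pathway and receptors, which held none of the 7, had 47 genes named on the array and 45 measured in the tissue comparisons. Between GM and liver 25 were higher in GM and 13 higher in liver (median log2 0.46 against -0.01 over all probes), where 35% and 35.7% of all probes were. Between GM and kidney 22 were higher in GM and 11 in kidney (median 0.24 against -0.05), where 35.2% and 40% of all probes were. Between liver and kidney 15 were higher in each (median 0.10 against -0.02), where 33.5% and 36.6% of all probes were. Of the 5 collagens measured 4 were higher in GM than in liver and 4 higher in GM than in kidney, with COL5A2, a chain of the fibril-nucleating type V collagen, 3.16 above liver and 3.77 above kidney. KERA, a proteoglycan of the family of DCN, was 3.86 above liver and 3.62 above kidney, and SPARCL1, a close relative of SPARC, was 3.89 above kidney. TIMP2, an inhibitor that also takes part in MMP2 activation, was 2.55 higher in GM than in liver and 3.49 higher than in kidney.

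Of the genes lower in GM, 4 of the 6 receptors measured were lower than in liver and 3 than in kidney, with SDC4, a heparan sulfate proteoglycan of the cell surface, at -2.74 and -2.90. PLG, the precursor of plasmin, and VTN, an adhesive plasma glycoprotein, had log2 differences of -11.04 and -10.93 in GM against liver, in the direction of CLU, and of 8.16 and 10.33 in liver against kidney. The cathepsins CTSL and CTSB had differences of -2.69 and -2.14 in GM against liver, and of -2.53 and -2.85 in GM against kidney. PLAT, tissue plasminogen activator, and TNC, a glycoprotein of remodelled matrix, were higher in kidney than in liver, as SPP1 was, with differences of -3.39 and -1.46 in liver against kidney. Among markers of other cells, smooth muscle and pericyte genes were higher in GM than in liver and than in kidney for 2 of 2 genes, and adipocyte genes for 6 and 7 of 8. The 1 fibroblast gene measured, THY1, was also higher in GM, but in no tissue was it above background on every array. Within kidney it did not pass the filter on low signals. Macrophage genes were lower in GM than in liver for 4 of 4, T cell genes for 6 of 6 and endothelial genes for 2 of 3, and against kidney GM was lower for 2 of 4, 3 of 6 and 2 of 3. Their part in the levels of DCN, SPARC and MMP2 was not tested.

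No probe of the 7 genes was called different between the lines. At an adjusted p below 0.05, 0 of 13 were called in each tissue, where the shares of all probes called were 0.761% for GM, 0.0937% for liver and 0.0119% for kidney. At an unadjusted limma p below 0.05 GM had 1 of 13, liver 2 and kidney 0, against 16.1%, 8.32% and 3.84% of all probes. The methods' t-test with equal variances also called 0 of 13 in each tissue after Benjamini-Hochberg adjustment. The ratio of F2 E over F2 C lay between -0.61 and 0.78 on the log2 scale over the 39 values. The line effect was not called different between any 2 tissues for any of the 13 probes by limma, none of which had an unadjusted p below 0.05, where 0.122% of all probes were called for GM against liver, 0.0435% for GM against kidney and 0.0203% for liver against kidney, and 7.48%, 5.68% and 2.28% had an unadjusted p below 0.05.

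**Figure D2:**
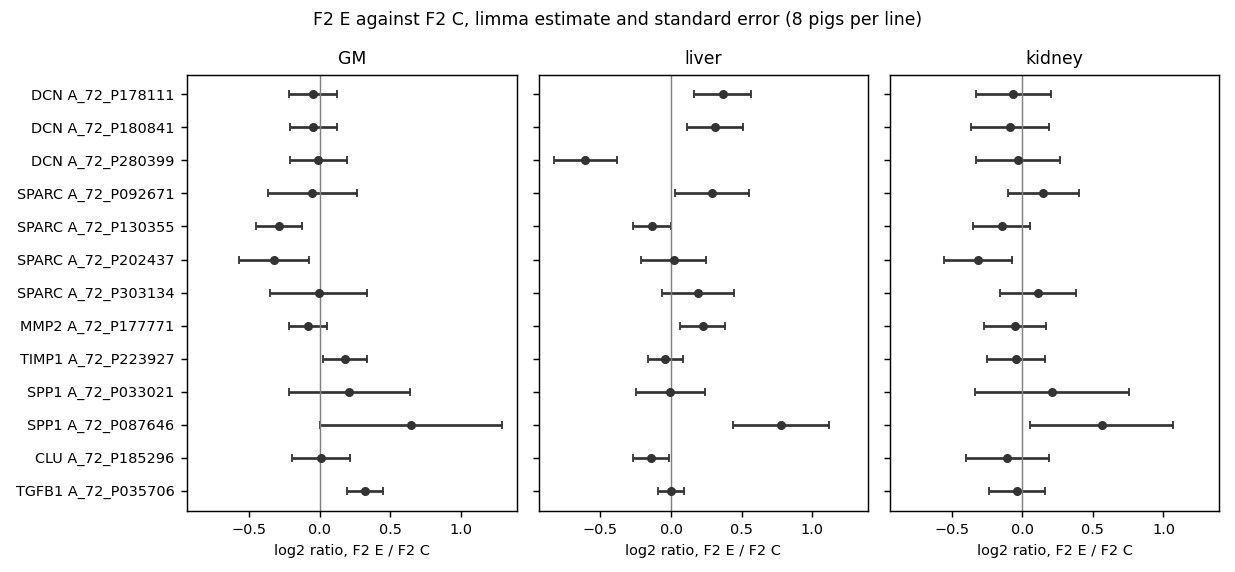
Log2 ratio of F2 E to F2 C offspring for each of the 13 probes in the 3 tissues, with bars of 1 limma standard error and 8 pigs per line (7 F2 C pigs for CLU in liver). The ratios lie on both sides of 0 and the largest, of SPP1 probe A_72_P087646 in liver, is 0.78.

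In GM the probe with an unadjusted p below 0.05 was that of TGFB1. On the scale normalized within GM the F2 C offspring ranged from 7.50 through a median of 7.97 to 8.32, and the F2 E offspring from 8.05 through 8.28 to 8.74. All 8 F2 E pigs lay above the F2 C median, but the lines overlapped. The log2 ratio was 0.32 (SE 0.129, limma p 0.0231, adjusted p 0.235), and an exact two-sided permutation test gave p = 0.0214. It was 0.06 among the pigs of the lower number series and 0.58 among those of the upper, number series being the 2 runs of pig numbers into which each line falls. In GM each series of a line was also a slide of its own. The median local background of a GM array was 26 to 28 in F2 E and 14 to 24 in F2 C offspring. The median number of spots well above background was 21442 and 25485. The part of these differences in the ratio was not tested. TGFB1 had ratios of -0.00 in liver and -0.04 in kidney. DCN, SPARC and MMP2 had ratios in GM between -0.32 and -0.01, none with a p below 0.05, and TIMP1 had 0.18 (SE 0.153, adjusted p 0.579).

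In liver the probes of DCN gave opposite ratios. With A_72_P178111 the F2 C offspring ranged from 10.22 through a median of 10.98 to 11.69 and the F2 E offspring from 10.49 through 11.38 to 11.80, a log2 ratio of 0.37 (SE 0.20, adjusted p 0.658). With A_72_P280399 the F2 C offspring ranged from 9.73 through 10.15 to 10.87 and the F2 E offspring from 8.74 through 9.59 to 10.63, a log2 ratio of -0.61 (SE 0.226, limma p 0.0150, adjusted p 0.457, exact permutation p = 0.0284). Thus 7 of 8 F2 E pigs were above the F2 C median with the first probe and 1 of 8 with the second. A_72_P180841 was on the side of the first with 0.31. The difference between A_72_P178111 and A_72_P280399 itself was 0.97 (SE 0.257, limma p 0.00151, adjusted p 0.272 over 2845 probe pairs, exact permutation p = 0.00342). It was not called, as no pair of the array was in liver, where 2.46% of pairs had an unadjusted p below 0.01.

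The ratios of A_72_P280399 and A_72_P178111 each came mainly from part of the pigs. That of A_72_P280399 was -0.08 in the lower number series, whose arrays lay on the slides that held both lines. It was -1.13 in the upper series, where each line had a slide of its own. A fixed slide block compares the lines only on the mixed slides, so it repeats the lower series, with -0.08 for A_72_P280399. Within the mixed slides, each with 2 pigs per line and a single sex, its ratio was -0.46 and 0.30. The positive ratio of A_72_P178111 was 0.58 in the lower series, and so with slide as a block, but 0.15 in the upper series. Within the mixed slides it was 0.61 and 0.55. Neither probe was called with slide as a block (limma adjusted p 0.941 and 0.481).

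**Figure D3:**
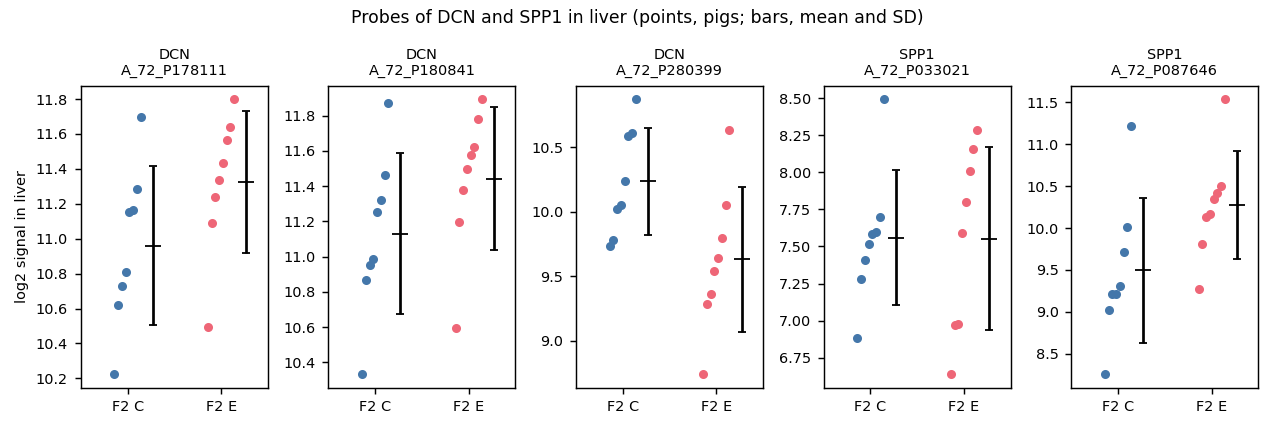
Levels in liver, normalized within liver and on the log2 scale, of the DCN and SPP1 probes in F2 C and F2 E offspring, with 1 point per pig and the mean and SD of the 8 pigs of a line beside the points. DCN probe A_72_P280399 lies lower in F2 E offspring, with a ratio of -0.61, and A_72_P178111 higher, with a ratio of 0.37.

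The other liver probe with an unadjusted p below 0.05 was A_72_P087646 of SPP1. The F2 C offspring ranged from 8.26 through a median of 9.26 to 11.22 and the F2 E offspring from 9.27 through 10.26 to 11.54, so that 8 of 8 F2 E pigs were above the F2 C median while the lines overlapped widely. The log2 ratio was 0.78 (SE 0.340, limma p 0.0345, adjusted p 0.550, exact permutation p = 0.0614). It was 0.43 in the lower number series, and so with slide as a fixed block, and 1.12 in the upper series. The same probe had ratios of 0.65 in GM (SE 0.645) and 0.56 in kidney (SE 0.506). A_72_P033021 of the same gene had ratios of -0.00 in liver, 0.21 in GM and 0.21 in kidney, and the sign of its liver value turned with the scaling. The liver ratio of A_72_P033021 minus that of A_72_P087646 was -0.78 (SE 0.233, limma p 0.00374, adjusted p 0.354, exact permutation p = 0.00808), which was not called. CLU, the gene with the highest tissue difference, had ratios of 0.01 in GM, -0.11 in kidney and -0.14 in liver. Its kidney ratio was 0.55 in the lower number series and -0.76 in the upper. That of A_72_P087646 in kidney was 0.08 and 1.05. In kidney, as in GM, each series of a line was also a slide of its own.

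No marker gene of another cell type was called between the lines by limma. In liver 0 of 6 adipocyte genes measured were called, with a median log2 ratio of 0.06 against -0.02 over all probes, and 2 had an unadjusted p below 0.05, FABP4 with 0.88 (adjusted p 0.266) and LIPE with 0.42 (adjusted p 0.277). The summed level there of 8 adipocyte genes was 10.85 to 11.43 in F2 C (median 11.11) and 11.08 to 11.81 in F2 E offspring (median 11.46), with 1 of the 8 not above background on any array. In kidney 0 of 8 hepatocyte genes were called, with a median log2 ratio of 0.30 against -0.01 over all probes, 2 had an unadjusted p below 0.05, and ALB had -0.73 (adjusted p 1.00). The summed level there of 8 hepatocyte genes was 14.58 to 15.49 in F2 C (median 15.05) and 15.18 to 16.84 in F2 E offspring (median 15.83). The part of these genes in the ratios was not tested.

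Of the matrix list, 0 genes were called between the lines by limma in any tissue. At an unadjusted p below 0.05 there were 7 of 43 measured for GM, 6 of 40 for liver and 1 of 43 for kidney, beside the 16.1%, 8.32% and 3.84% of all probes given above. In GM, 3 genes had an unadjusted p below 0.01, where 5.71% of all probes did. These were MMP3, a stromelysin that cuts proteoglycans (log2 ratio -0.46, adjusted p 0.0781), INHBA, an activin subunit (0.40, adjusted p 0.131), and ITGAV, the integrin chain that binds SPP1 and VTN (-0.40, adjusted p 0.146). In liver MGP, a matrix inhibitor of calcification, did (0.54, adjusted p 0.342), against 2.45% of all probes, and in kidney 0 did, against 0.998%.

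Between barrows and females 0 of 13 probes were called in each tissue at an adjusted limma p below 0.05, where 0.121% of all GM probes, 0.118% of liver and 0.0921% of kidney probes were. At an unadjusted p below 0.05 there was 1 of 13 in liver and 0 in GM and kidney, against 14.2%, 3.86% and 0.912% of all probes. It was CLU in liver, 0.26 higher in barrows after adjustment for line (SE 0.115, limma p 0.0397, adjusted p 0.326), with all 7 barrows measured above the female median. An exact permutation test of the difference without line gave p = 0.0250. The pig left out was also a barrow, at 17.11 with its spot kept, where the lowest other barrow had 17.24. Barrows and females had means of 17.31 and 16.88 in F2 E and of 17.27 and 17.21 in F2 C offspring. Of the matrix list 0 genes were called, and 3 had an unadjusted p below 0.05 in GM, 6 in liver and 1 in kidney. PLG in GM, 1.31 higher in barrows (adjusted p 0.481), and FBN1, VTN and CTSL in liver, 0.44, 0.38 and 0.41 higher in barrows, had an unadjusted p below 0.01, as did 0.691%, 4.35% and 0.205% of all probes in the 3 tissues in the order GM, liver, kidney. Of the hepatocyte markers in GM, 0 of 8 were called between the sexes, and 4 had an unadjusted p below 0.01. These were ALB, HP, TTR and APOC3, 2.40, 1.17, 1.43 and 1.04 higher in barrows (adjusted p 0.103, 0.0881, 0.998 and 0.928), and the median over the 8 was 0.92 against 0.01 over all probes. Only 3 of the 8 were above background on every GM array. The part of the hepatocyte markers in the PLG value was not tested.

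In kidney the line ratio of barrows lay below that of females for all 7 genes, with none past the threshold. The F2 E over F2 C ratio of barrows minus that of females was negative for 13 of 13 probes in kidney, for 6 in liver and for 9 in GM. The share of all probes with a negative difference was not computed, so these counts have no background to be read against. The 7 genes also varied together over the same kidney arrays, as described below, so the 13 probes are not independent. None of the 13 probes was called, and neither was any other probe on the array, the share called being 0% in each tissue. At an unadjusted limma p below 0.05 there were 7 of 13 in kidney, against 2.64% of all 33664 probes, and 0 of 13 in GM and liver, where 3.46% and 1.75% were. The 7 were the 3 probes of DCN, both of SPP1, A_72_P130355 of SPARC and that of CLU, so they stand for 4 genes, and probes of 1 gene share their signal.

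For A_72_P033021 of SPP1 the kidney levels were 7.71, 8.43, 10.47 and 10.65 in F2 C barrows and 7.06, 7.61, 7.95 and 9.60 in F2 C females. They were 7.00, 8.47, 8.84 and 8.95 in F2 E barrows and 8.88, 9.01, 9.27 and 10.73 in F2 E females. F2 E females lay above 3 of 4 F2 C females, and 2 F2 C barrows lay above all F2 E barrows. The difference of the ratios was -2.42 (SE 0.990, limma p 0.0270, adjusted p 0.906). For CLU the levels were 9.97, 10.00, 10.07 and 10.47 in F2 C barrows, all above the F2 E barrows at 9.09, 9.39, 9.58 and 9.62. F2 C females had 8.58, 8.73, 9.52 and 11.01 and F2 E females 9.61, 9.84, 10.01 and 10.36, and the difference of the ratios was -1.20 (SE 0.552, limma p 0.0459, adjusted p 0.906). For DCN the differences were -1.13, -1.17 and -1.36 over the 3 probes.

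The count rested on single pigs. It was 6 of 13 with the 75th percentile scaling of the median signal, against 1.62% of all probes, and 5 with the processed signal, against 3.18%. Leaving out 1 pig gave 1 of 13 without F2 C replicate 6, against 2.49% of all probes. It gave 2 of 13 without F2 C replicate 1 (1.91%), F2 E replicate 7 (1.47%) or F2 E replicate 8 (2.47%), and up to 8 without F2 C replicate 5 (2.47%). The share of all probes was highest, 11.5%, without F2 E replicate 5, where the count was 5 of 13. Without both kidney arrays of lowest median signal, F2 E replicates 5 and 7, it was 4 of 13, against 6.47% of all probes.

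**Figure D4:**
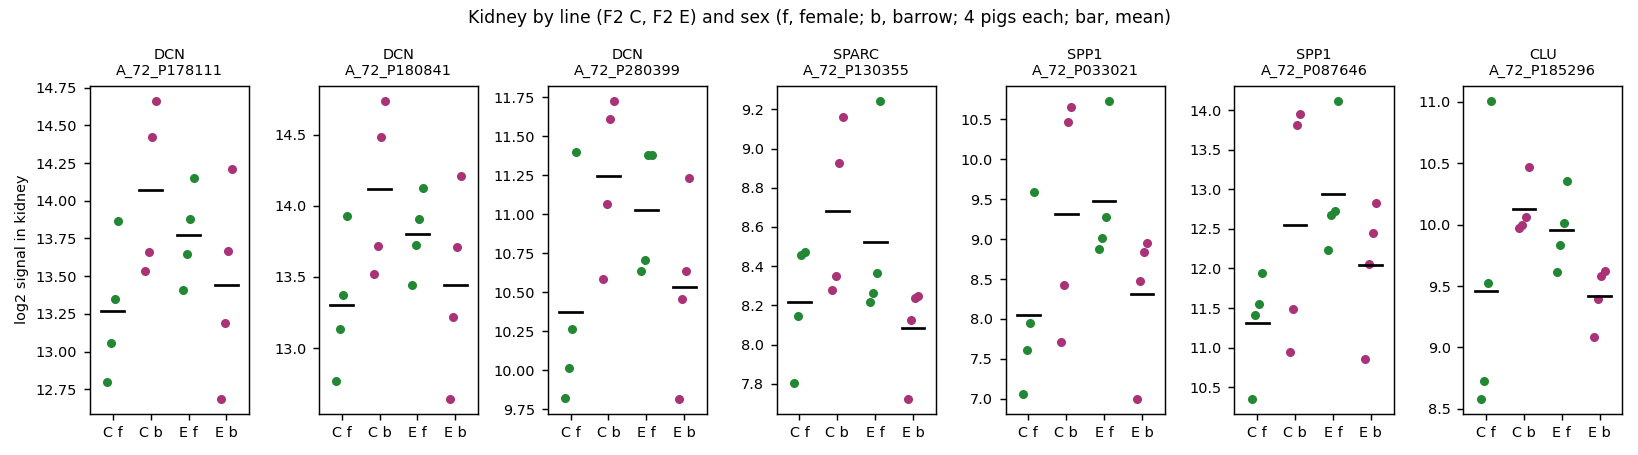
Kidney levels of the 7 probes, normalized within kidney and on the log2 scale, in F2 C and F2 E barrows and females, with 1 point per pig, 4 pigs per group and the mean marked. CLU lies higher in F2 C than in F2 E barrows, and with A_72_P033021 of SPP1 3 of 4 F2 C females lie below all F2 E females.

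From pig to pig the 7 genes varied together most in kidney. Pearson's r of the levels of 2 genes, after removal of the line means and with the brightest probe of each gene, was computed for 63 pairs, 21 in each tissue, with 100000 resamples in the permutation test and adjustment over all 63. Of these, 11 pairs were called, all positive, 7 in kidney and 2 each in GM and liver, and the median r was 0.48 in kidney, 0.10 in GM and 0.16 in liver. All 11 had an r of 0.63 or more. Of all pairs of genes named by accession, 9.78% reached that r in kidney, 3.26% in GM and 3.81% in liver, so high correlations were also commonest in kidney over the array, and the median r over these pairs was 0.02, 0.04 and 0.04. Whether the tissues differ in this was not tested. MMP2 and TGFB1 in kidney had r 0.92 (n = 16, permutation p = 1e-05, the smallest these resamples can give, adjusted 0.00063) and Spearman's rho 0.84 (permutation p = 0.00011, adjusted 0.00231). The r was 0.81 without the 2 pigs farthest from the median of MMP2, and 0.94 and 0.85 within the lower and the upper number series.

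The other pairs in kidney joined DCN, TIMP1 and SPP1. TIMP1 with SPP1 had r 0.82 (permutation p = 0.00013, adjusted 0.00378; rho 0.68, permutation p = 0.00488, adjusted 0.0521), 0.71 without the 2 farthest pigs and 0.94 and 0.78 within the series. DCN with SPP1 also had r 0.82 (permutation p = 0.00018, adjusted 0.00378) and rho 0.86 (permutation p = 7e-05, adjusted 0.00231), 0.82 without the 2 farthest pigs and 0.92 and 0.84 within the series. DCN with TIMP1 had r 0.75 and MMP2 with TIMP1 had r 0.67, and SPARC had r of 0.63 with DCN and with SPP1, with adjusted permutation p between 0.0159 and 0.0496. By rho none of these pairs was called. In the same order rho was 0.61, 0.56, 0.68 and 0.66, with adjusted permutation p of 0.113, 0.147, 0.0521 and 0.059. Under the 75th percentile scaling DCN with TIMP1 (r 0.47, adjusted permutation p = 0.237), DCN with SPARC (0.60, adjusted permutation p = 0.102) and SPARC with SPP1 (0.59, adjusted permutation p = 0.108) were no longer called. These pairs share the same 16 arrays, whose raw signal differed widely in kidney. Without both arrays of lowest signal 6 pairs were called in kidney, 5 of them among these 7.

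**Figure D5:**
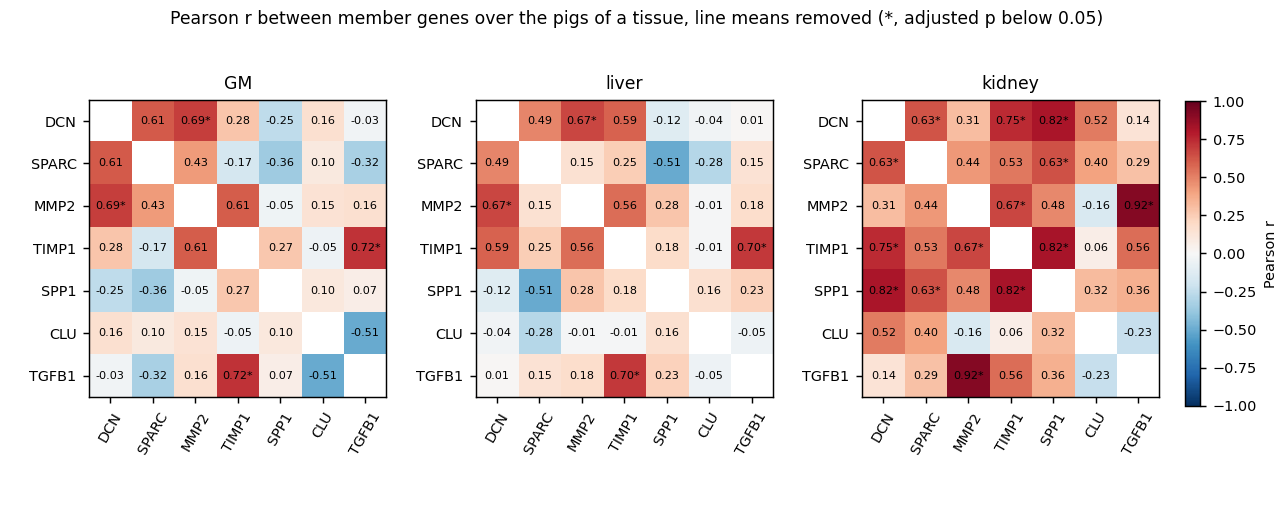
Pearson's r over 16 pigs between the levels of each pair of the 7 genes in GM, liver and kidney (15 pigs for CLU in liver), after removal of the line means, with colour from blue (negative) to red (positive) and an asterisk on pairs called at an adjusted permutation p below 0.05. Kidney holds 7 of the 11 called pairs, with the highest r, 0.92, between MMP2 and TGFB1.

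In GM and liver the same 2 pairs were called, with different support. DCN and MMP2 had r 0.69 in GM (permutation p = 0.003, adjusted 0.027), 0.55 without the 2 farthest pigs and 0.86 and 0.73 within the series. Their rho in GM was 0.56 (permutation p = 0.0256, adjusted 0.147), so the pair was not called by rho. In liver they had r 0.67 (adjusted permutation p = 0.0353), but rho was 0.41 (permutation p = 0.120), r was 0.22 without the 2 farthest pigs and -0.24 in the lower series against 0.89 in the upper, so the relation rested on a few pigs, and under the 75th percentile scaling its adjusted permutation p was 0.0513. TIMP1 and TGFB1 had r 0.72 in GM (permutation p = 0.00187, adjusted 0.0235) and rho 0.74, with 0.77 without the 2 farthest pigs. In liver they had r 0.70 and rho 0.84, and this relation was lost under the 75th percentile scaling, with r -0.13.

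For 3 SPARC probes between GM and another tissue, and for MMP2 between GM and kidney, the levels of the pigs in both tissues were correlated. This comparison of the same probe in 2 tissues of a pig was added after the data were seen, and it covered 39 relations, of which 29 were positive, 10 had a permutation p below 0.05 and 6 were called. The 6 had an r of 0.73 or more, 3 of 13 probes between GM and liver, 3 between GM and kidney and 0 between liver and kidney, where 1.92%, 1.95% and 1.94% of all probes reached that r and 56.2%, 55.8% and 54.7% had a positive one. For A_72_P092671 of SPARC, normalized within each tissue, the 3 highest GM levels were 15.06 in F2 C replicate 4, 15.13 in F2 E replicate 1 and 15.39 in F2 C replicate 1. The same pigs had 12.55, 12.41 and 12.77 in liver and 12.88, 13.11 and 13.79 in kidney, each above the median of its line. Over the 16 pigs the r between GM and liver was 0.78 (permutation p = 0.00048, adjusted 0.00593; rho 0.61, permutation p = 0.0129), 0.64 without the 2 farthest pigs and 0.60 and 0.79 within the series. Between GM and kidney it was 0.77 (permutation p = 0.00036, adjusted 0.00593; rho 0.74, permutation p = 0.00164), but 0.31 in the lower series against 0.88 in the upper.

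MMP2 had r 0.76 between GM and kidney (permutation p = 0.00076, adjusted 0.00593) and rho 0.76 (permutation p = 0.00095), with 0.65 without the 2 farthest pigs and 0.86 and 0.67 within the series, but -0.03 between GM and liver and -0.32 between liver and kidney. The 3 other called relations were of SPARC, A_72_P202437 between GM and liver with r 0.77, and A_72_P303134 with r 0.77 between GM and liver and 0.73 between GM and kidney. Their rho was 0.46 (permutation p = 0.0736), 0.49 (permutation p = 0.0559) and 0.69 (permutation p = 0.00398). The r in the lower and upper series was 0.02 and 0.91 for the first, 0.42 and 0.81 for the second, and 0.17 and 0.81 for the third. After adjustment the permutation p of rho was below 0.05 only for A_72_P092671 and MMP2, both between GM and kidney (0.0320 each). The fourth SPARC probe, A_72_P130355, had 0.31, 0.22 and -0.11 over the 3 pairs of tissues, none called. TIMP1 had -0.50 between GM and liver (permutation p = 0.0483, adjusted 0.169) and 0.50 between GM and kidney (permutation p = 0.0456, adjusted 0.169). SPP1, the gene that varied most between pigs, had r between 0.04 and 0.35 over its 2 probes and 3 pairs of tissues, none with a permutation p below 0.05.

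The genes whose levels followed each of the 7 most closely were read from the tissue with the highest mean of that gene. For TGFB1 (liver) and TIMP1 (GM) the difference of that tissue from kidney was not called or not stable. Candidates were genes named by accession. The r is a description, taken over the arrays that these genes share and after removal of line means. In kidney SPP1 was followed by TNC (r 0.93) and PLAT (r 0.92), both of the matrix list, and by PLN (r 0.87), where the median r of 1725 candidates was 0.13 and 5% of them exceeded 0.70. In GM DCN was followed by SERPING1, ANXA2 and RAB34 (r 0.90, 0.89 and 0.87), SPARC by ANG, CES1 and C4H8orf37 (0.86, 0.85 and 0.83), MMP2 by MAOA, GNG12 and CD302 (0.91, 0.88 and 0.84) and TIMP1 by SLIRP, CD302 and HSPH1 (0.81, 0.79 and 0.77). In liver CLU was followed by AMBN, APP and GNAS (0.91, 0.90 and 0.89, 15 pigs) and TGFB1 by HCST, RPL29 and APOM (0.84, 0.81 and 0.80). In these cases 5% of the candidates exceeded an r between 0.55 and 0.70.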

How the data were processed

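Total RNA of GM, liver and kidney was hybridised by the authors to a 1-colour Agilent porcine array. The deposited scanner files, 1 per array, hold intensity values that the authors obtained with Agilent Feature Extraction (10.5.1.1 per the file headers): the median signal of a spot, its local background and a processed signal, none normalized between arrays. The authors' tables of comparisons, with log2 signals, ratios and p-values, were not used.

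The median signal was log2-transformed, then quantile-normalized within a tissue, or over all 48 arrays for comparisons between tissues. Control spots were left out, and values of outlier spots were dropped once the arrays had been normalized. A probe was kept if its signal exceeded 25 and stood well above background on 50% or more of a line's arrays, with at least 2 unmarked arrays per line. Probes were named by RefSeq accession through a RefSeq gene table, and 4803 probes known by an Ensembl transcript were not named. Lines and sexes (with line as a covariate) were compared with lmFit and eBayes of limma 3.58.1 in R 4.3.3, with Benjamini-Hochberg adjustment over all probes of the comparison and a call at an adjusted p below 0.05. Tissues and line-by-tissue contrasts were fitted over 48 arrays with the pig as a random block (correlation 0.03), since the 3 tissues come from the same animals. Tissues were matched by pig, since F2 E replicates 4 to 8 are numbered in another order in each tissue. The deviations of 2 tissues of a pig from their group means had a median correlation of 0.17 for GM and liver, 0.15 for GM and kidney, and 0.23 for liver and kidney. Single probes were also tested by exact two-sided permutation with no covariate, over 12870 splits of 16 pigs and fewer for the 15 pigs of CLU in liver. Correlations were tested by 100000 resamples with Python 3.11.15, numpy 2.4.6, scipy 1.17.1 and pandas 2.3.3. The fits were tested on simulated data. The named genes were all 13 probes, the matrix genes called or with an unadjusted p below 0.01 between lines or sexes, the 5 highest and 5 lowest called matrix genes per tissue contrast, and the 3 genes most like each of the 7. The 7 genes and all lists were chosen with earlier results of these data known. Alternatives changed the signal, the scaling, the filter, the handling of marked spots, the block, the test and the pigs included.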

Additional observations from a re-analysis of the deposited data

Results flagged for a closer look

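Of 78 groups of 8 pigs tested, 1 per probe, tissue and line, 2 held a pig that stood apart from the others of its group by the gap to its nearest neighbour, where chance gives about 5% of groups. In kidney F2 E replicate 5 had the highest level of SPARC probe A_72_P130355 among F2 E offspring, 9.24, where the next pig had 8.37 and the lowest 7.72. That array was one of the 2 kidney arrays of lowest median signal. In GM F2 E replicate 1 had the highest level of SPARC probe A_72_P202437 among F2 E offspring, 14.19, where the next pig had 13.38 and the lowest 12.70. The same pig was among the 3 highest in GM for SPARC probe A_72_P092671.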

How the results depend on the processing

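No probe of the 7 genes was called between the lines or the sexes under any alternative with all pigs or without 1 pig, and the calls between tissues ranged from 12 to 13 of 13 for GM and liver and for GM and kidney, and from 8 to 10 for liver and kidney. With the number that the labels share between an F2 C and an F2 E pig as a replicate block, 0 of 13 were called in GM, liver and kidney. Such pigs had correlated deviations over 0.1 in 2, 6 and 3 of 8 cases, and 1, 3 and 1 of 8 correlated best with their own number, and the labels give the number no meaning, so it was not taken as a pairing. In liver, numbers 5 and 6 of both lines shared 1 slide and numbers 7 and 8 another. Between tissues, 12, 13 and 10 probes were called with no replicate block and 13, 13 and 10 with the pig as a fixed replicate block, where SPP1 probe A_72_P033021 was called between GM and liver (adjusted p 0.0387).

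The number of correlated pairs of genes was 11, against 7 with the median signal scaled to the 75th percentile and 20 with values centred on the 4 sets of pigs of 1 line and number series. Of the tissue calls, TIMP1 between GM and kidney was lost with the processed signal (adjusted p 0.130) and without F2 C replicate 5 or 7. DCN probe A_72_P280399 between liver and kidney was lost with the processed signal (adjusted p 0.260) and without any of F2 C replicates 1 and 5 and F2 E replicates 1, 2 and 3. SPARC probe A_72_P092671 between liver and kidney was lost with the 75th percentile scaling (adjusted p 0.117) and without any of 7 pigs (highest adjusted p 0.0995), and SPP1 probe A_72_P033021 between liver and kidney was lost without F2 C replicate 1 (adjusted p 0.0507). The cause was not tested.

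Signs turned for values near 0. The liver ratio of SPP1 probe A_72_P033021 was 0.0827 with the processed signal and 0.113 with the 75th percentile scaling, and without 1 pig it ranged from -0.109 to 0.128. Its ratio ranged without 1 pig from -0.0603 to 0.458 in GM and from -0.0540 to 0.491 in kidney. SPARC probe A_72_P202437 between liver and kidney ranged from -0.0656 to 0.143. For the 29 other line ratios, 85 of 857 values under alternatives had a turned sign, the largest of them 0.18, and 0 were called. The 75th percentile scaling moved the median of all probes by 0.25 for GM against liver, 0.60 for GM against kidney and 0.38 for liver against kidney. Relative to that shift the sign turned for TIMP1 between GM and kidney, and for TGFB1 and SPARC probes A_72_P130355 and A_72_P202437 between liver and kidney. Background correction by normexp was run on the median signal, not on the mean signal, and was chosen after seeing the data, as were slide and scan day as fixed blocks in liver and leaving out the 2 kidney arrays of lowest signal.

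The median raw signal of the kidney arrays ranged from 48 to 240.5. How far the arrays of lowest signal limit the differences seen in kidney was not tested. The spread of SPP1 between pigs limits its line ratios, whose standard errors were 0.34 to 0.64 for A_72_P087646.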
